A study of Homo sapiens with 4 samples.

Results

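The homing receptors are 9 genes that steer T cells to tissues: CCR4, CCR7, CCR8, CCR10, CXCR3, CXCR4, GPR15, SELPLG and S1PR1. They were taken as every probe set whose only symbol in the array annotation was 1 of these names, which gave 13 of the 54675 probe sets on the array, at least 1 for each gene. RNA came from the lines MyLa, derived from mycosis fungoides, and HH, derived from a cutaneous T cell lymphoma. Each line was kept for 40 hours in 0.1% serum, either with the cytokine IL-32γ (interleukin-32, gamma isoform) at 5 ng/ml or without it (control). All 4 arrays therefore share the low serum, and there was 1 array for each of MyLa with IL-32γ, MyLa control, HH with IL-32γ and HH control. Each line is 1 established cell line, and nothing in the labels says that its arrays came from separate cultures, so the spread between arrays may be technical.

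T cells leave the blood where an adhesion step and a chemokine signal coincide. The first is rolling on selectins, for which the mucin PSGL-1, encoded by SELPLG, must carry fucosylated and sialylated glycans; in that decorated form, cutaneous lymphocyte antigen, it binds E-selectin on skin vessels. The second is signalling through G protein-coupled receptors: CCR7 draws cells into lymph nodes, CCR4, CCR8 and CCR10 into skin, CXCR3 into inflamed tissue, CXCR4 towards CXCL12 in marrow and stroma, and GPR15 into colon and skin. S1PR1 works in the opposite sense, since it senses sphingosine 1-phosphate and lets cells leave lymph nodes. CCR4 is a known surface marker of cutaneous T cell lymphoma, and loss of CCR7 and S1PR1 marks T cells that stay in tissue.

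The values are log2 expression values, and values under 5 were treated as not measured (the floor) because 50.5% to 51.1% of probe sets on an array lay below 3. The T cell markers CD3D, CD3G, CD247, TRBC1 and CD2 were above 5 on all 4 arrays, while CD7 and CD28 were below 5 on all. CD3E, CD4 and CD5 were below 5 in MyLa and measured in HH, and CD8A was measured in MyLa and below 5 in HH. Of markers of other cells, 0 of 4 for B cells, 0 of 4 for monocytes, 0 of 5 for NK cells and 0 of 4 for endothelium reached 5 on any array. Of 5 fibroblast markers, COL3A1 and COL1A1 were measured in MyLa and COL1A2 and DCN on no array, with a summed level (log2) of 13.42 and 13.52 on the MyLa IL-32γ and control arrays and of 6.13 and 5.55 on those of HH. Of 4 keratinocyte markers, KRT5, KRT14 and KRT1 were below 5 on every array, and KRT10 lay between 11.44 and 11.66. Control probe sets for the 5' end of ACTB differed between arrays: 11.81 in MyLa with IL-32γ against 10.12 in MyLa control, and 13.58 in HH with IL-32γ against 12.69 in HH control, while the 3' probe set of ACTB lay between 15.07 and 15.27. In bulk RNA, fewer cells with a transcript and less of it per cell cannot be told apart.

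The promoters of 3 receptors are shown because these genes carry the contrasts described here: GPR15 was higher with IL-32γ in both lines, CXCR4 gave different answers by probe set, and S1PR1 was high and nearly level on all arrays. RefSeq windows of build GRCh38.p14, from 250 bases before to 50 after the start site, were held for 5 of the 9 genes. Capitals mark matches, on either strand, to any of 5 motifs. The TATA box, at which transcription can be positioned, was searched as TATAAA. The site of the zinc finger factors of the KLF family was searched as CACCC. That of the RUNX factors, which are central in T cells, was searched as TGTGGT. The core site of the aryl hydrocarbon receptor, AHR, was searched as GCGTG. That of the GATA factors, of which GATA3 is the one in T cells, was searched as AGATAA.
GPR15, chr3:98531728-98532027, plus strand: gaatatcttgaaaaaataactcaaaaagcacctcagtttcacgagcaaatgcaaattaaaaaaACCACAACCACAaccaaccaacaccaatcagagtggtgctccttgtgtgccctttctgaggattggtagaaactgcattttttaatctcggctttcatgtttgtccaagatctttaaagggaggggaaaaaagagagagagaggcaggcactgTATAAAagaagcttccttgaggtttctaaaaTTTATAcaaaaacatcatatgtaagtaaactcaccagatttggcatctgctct
CXCR4, the first of 3 listed start sites, chr2:136118100-136118399, minus strand: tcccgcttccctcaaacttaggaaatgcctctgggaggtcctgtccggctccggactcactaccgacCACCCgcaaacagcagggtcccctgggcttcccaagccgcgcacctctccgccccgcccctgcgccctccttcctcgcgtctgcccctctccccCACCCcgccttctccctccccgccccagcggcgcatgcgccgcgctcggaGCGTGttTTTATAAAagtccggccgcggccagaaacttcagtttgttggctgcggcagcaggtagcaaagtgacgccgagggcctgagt
S1PR1, chr1:101236769-101237068, plus strand: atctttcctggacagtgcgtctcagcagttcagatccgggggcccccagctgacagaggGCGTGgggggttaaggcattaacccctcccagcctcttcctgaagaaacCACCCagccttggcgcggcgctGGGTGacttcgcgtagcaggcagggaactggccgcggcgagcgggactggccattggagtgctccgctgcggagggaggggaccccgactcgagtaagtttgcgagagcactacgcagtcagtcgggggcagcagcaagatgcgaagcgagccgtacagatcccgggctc
The GPR15 window had 38.0% G and C and 2 CpG pairs, against a median of 58.7% (quartiles 47.0% and 68.0%) over 35116 windows of the same length, and those of CXCR4 and S1PR1 had 66.7% and 64.7% with 27 and 23 CpG pairs. TATAAA began at position -34 in GPR15 and -30 in CXCR4, and each also had it on the other strand, at -3 in GPR15 and at -32 in CXCR4, where it overlaps the first match. It was not in the S1PR1 window, and 11.5% of all windows hold it. GPR15 had a pair of adjoining RUNX matches on the minus strand, at -187 and -181 (13.1% of windows hold at least 1), and no KLF or AHR match in this window. S1PR1 had CACCC at -142 and, on the minus strand, at -120 (59.9% of windows), with GCGTG at -191 (36.5%). CXCR4 had both motifs as well, CACCC at -183 and -89 and GCGTG at -39. The GATA motif, in 10.3% of windows, was in none of the 3 printed. These matches are descriptions of letters and were not tested as binding sites.

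Of the 13 probe sets, 8 were at 5 or more on every array, 1 (CCR10) in MyLa alone, and 4 (CCR4, CCR8 and both of CXCR3) on no array. Both lines thus had measured transcripts of CCR7, S1PR1, SELPLG, CXCR4 and GPR15. The skin-homing receptor gene CCR4 stayed below the floor in all samples, at 2.23 on both MyLa arrays and at 4.82 and 4.34 on the HH IL-32γ and control arrays. CCR8, the receptor of CCL1, read 2.13 on all 4 arrays. CXCR3, the receptor of CXCL9, CXCL10 and CXCL11, read 2.13 on every array in 1 probe set and between 2.13 and 2.38 in the other. With the floor of 5 in use no fold change is given for these 3 genes, and a value below the floor does not show that the transcript was absent.

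**Figure D1:**
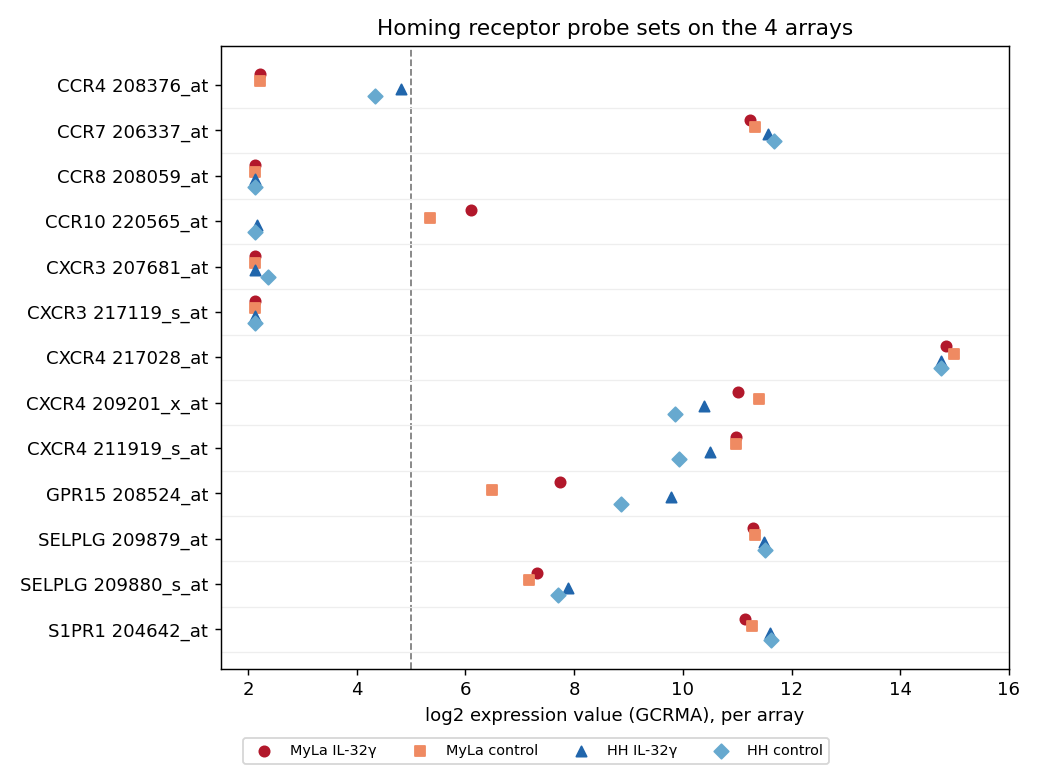
Log2 expression value of each of the 13 homing receptor probe sets (rows) on the 4 arrays (symbols, 1 array each); the dashed line marks the floor of 5. CCR4, CCR8 and CXCR3 lie left of the floor on every array, CCR10 is right of it in MyLa alone, and GPR15 spans 6.48 to 9.78.

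The lymph node receptors were nearly level. CCR7, the receptor of CCL19 and CCL21, read 11.23 on the MyLa IL-32γ array and 11.33 on the MyLa control array, with 11.57 and 11.68 in HH. S1PR1, the egress receptor, read 11.14 with IL-32γ and 11.27 without it in MyLa, and 11.60 and 11.63 in HH. The 4 values of a gene spanned 0.45 for CCR7 and 0.49 for S1PR1, HH was the higher line on every array, and IL-32γ values were slightly the lower ones in each line.

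The selectin ligand SELPLG was level as well. Its brighter probe set, 209879_at, read 11.30 with IL-32γ and 11.33 without it in MyLa, and 11.49 and 11.51 in HH. The dimmer one, 209880_s_at, read 7.31 and 7.17 in MyLa, and 7.89 and 7.70 in HH. The brighter one spanned 0.21 over all arrays, and both were lower in MyLa than in HH on all arrays, without overlap.

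CCR10, the receptor of the skin chemokines CCL27 and CCL28, read 6.10 on the MyLa IL-32γ array and 5.35 on the MyLa control array, and 2.16 and 2.13 in HH, both below the floor. It is the only member measured in 1 line alone, and its control value in MyLa was close to the floor.

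CXCR4, the receptor of CXCL12, had 3 probe sets that did not give the same order of arrays. The brightest, 217028_at, read 14.84 and 14.99 in MyLa with IL-32γ and control, and 14.75 on both HH arrays. The other two can match several transcripts by their names. Of these, 209201_x_at read 11.01 and 11.41 in MyLa, and 10.40 and 9.85 in HH. The third, 211919_s_at, read 10.98 and 10.97 in MyLa, and 10.50 and 9.92 in HH. All 3 were higher in MyLa, but only the dimmer pair separated the HH arrays, with the control array the lowest.

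GPR15, which has 1 probe set, had the widest range of the members measured on all 4 arrays, at 3.30 on the log2 scale. It read 7.73 on the MyLa IL-32γ array and 6.48 on the MyLa control array. In HH it read 9.78 with IL-32γ and 8.87 without. Both HH arrays were above both MyLa arrays, and within each line the IL-32γ array was the higher.

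The first comparison asks what IL-32γ did to these transcripts within each line. GPR15 was higher with IL-32γ in both lines, by 2.38-fold in MyLa (log2 difference 1.25) and by 1.89-fold in HH (0.92). CCR10 was higher in MyLa by 1.67-fold (0.74). No member was lower by 1.5-fold or more in either line, and the differences of CCR7, S1PR1, SELPLG and the brightest CXCR4 probe set ran from -0.15 to 0.19. With 1 array per condition these differences have no replicate check and no test. Among the members, 2 of 9 measured probe sets in MyLa were at least 1.5-fold higher, against 11.0% of all 24232 measured probe sets (2659 of them), and 1 of 8 in HH, against 5.45% of 23855. Lower by 1.5-fold or more were 9.13% of all probe sets in MyLa and 4.02% in HH. The members' median difference was -0.03 in MyLa and 0.09 in HH, beside -0.05 and -0.02 over all measured probe sets.

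**Figure D2:**
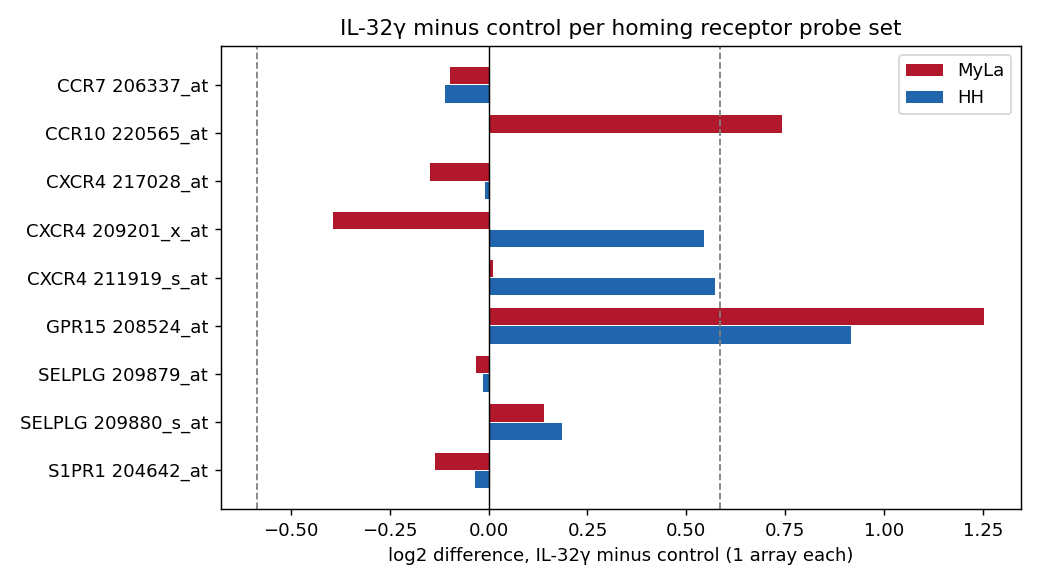
Log2 difference, IL-32γ minus control, for each member probe set measured in at least 1 line, in MyLa (red) and HH (blue), from 1 array each; dashed lines mark 1.5-fold. GPR15 passes the right-hand line in both lines and CCR10 in MyLa, where alone it was measured; 209201_x_at of CXCR4 points left in MyLa and right in HH.

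GPR15 was the 1 of 8 member probe sets past 1.5-fold in both lines, where 2.14% of all 21820 probe sets measured in both were. In MyLa 588 of 24232 probe sets had a larger difference than GPR15, and in HH 426 of 23855 did. Across the lines, with the line as a block, its mean difference was 1.08 ± 0.15 (SE, n = 2 lines). Its p from limma was 0.00427, and 0.483 after Benjamini-Hochberg adjustment over 25306 probe sets. No probe set on the array passed an adjusted p of 0.05 in this fit, which has 1 residual degree of freedom, and 10.2% had an unadjusted p under 0.05. The other members had adjusted p-values from 0.607 to 0.950. Their mean differences were 0.37 ± 0.24 for CCR10, -0.10 ± 0.12 for CCR7, -0.09 ± 0.13 for S1PR1 and -0.02 ± 0.12 for 209879_at of SELPLG. That of CCR10 and its adjusted p of 0.607 rest on MyLa alone, because both HH values were below the floor and raised to 5.

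The CXCR4 probe sets gave no single response. In HH the dimmer pair were higher with IL-32γ by 0.54 and 0.57, just inside 1.5-fold, while the brightest differed by -0.01. In MyLa they differed by -0.39 for 209201_x_at and 0.01 for 211919_s_at, and by -0.15 for the brightest. The response of 209201_x_at in MyLa minus that in HH was -0.94, which was not tested because each response is 1 pair of arrays. Quantile normalisation or median centring moved 211919_s_at in HH past 1.5-fold, to at most 0.60.

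The GPR15 values followed those of the 5' control probe set of ACTB over the 4 arrays. That probe set was higher with IL-32γ by 1.69 in MyLa and 0.89 in HH, and lower in MyLa than in HH by a log2 difference of -2.16, against 1.25, 0.92 and -2.22 for GPR15. With each centred on its own mean over the arrays, the root mean square difference between them was 0.16. It was 0.54 between GPR15 and the middle probe set of ACTB, and 1.18 between GPR15 and the 3' one. For the other members this distance to the 5' ACTB probe set was 1.00 to 1.79. The 5' probe set of GAPDH was higher with IL-32γ by 0.68 in MyLa and 0.15 in HH. Its MyLa minus HH difference was -0.40, and its distance to GPR15 was 0.97. The part of RNA integrity or labelling length in the GPR15 difference was not tested, and GPR15 has no other probe set here.

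The probe sets most like GPR15 by that distance, among 21414 of other genes, were 1553530_a_at of ITGB1, the integrin beta 1 chain (0.07), 238231_at of NFYC, a subunit of the CCAAT-binding factor (0.12), and 224559_at of MALAT1, a nuclear noncoding RNA (0.12). Such likeness rests on 4 values per probe set and describes these arrays alone. ITGB1 had 3 measured probe sets, and they disagreed. The GPR15-like one read 8.80 with IL-32γ and 7.40 without in MyLa, and 10.82 and 9.99 in HH. The brightest, 211945_s_at, read 12.02 and 12.03 in MyLa, and 13.41 and 13.43 in HH, so that its response was -0.01 in both lines. The intermediate one, 1553678_a_at, differed by 0.51 and 0.22. Across the array, 8.64% of probe sets that were not the brightest of their gene were higher by 1.5-fold or more with IL-32γ in HH. Of the brightest ones 1.14% were, and in MyLa the shares were 15.1% and 7.77%. GPR15, which has 1 probe set, counts among the brightest ones. What sets these shares apart was not tested.

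**Figure D3:**
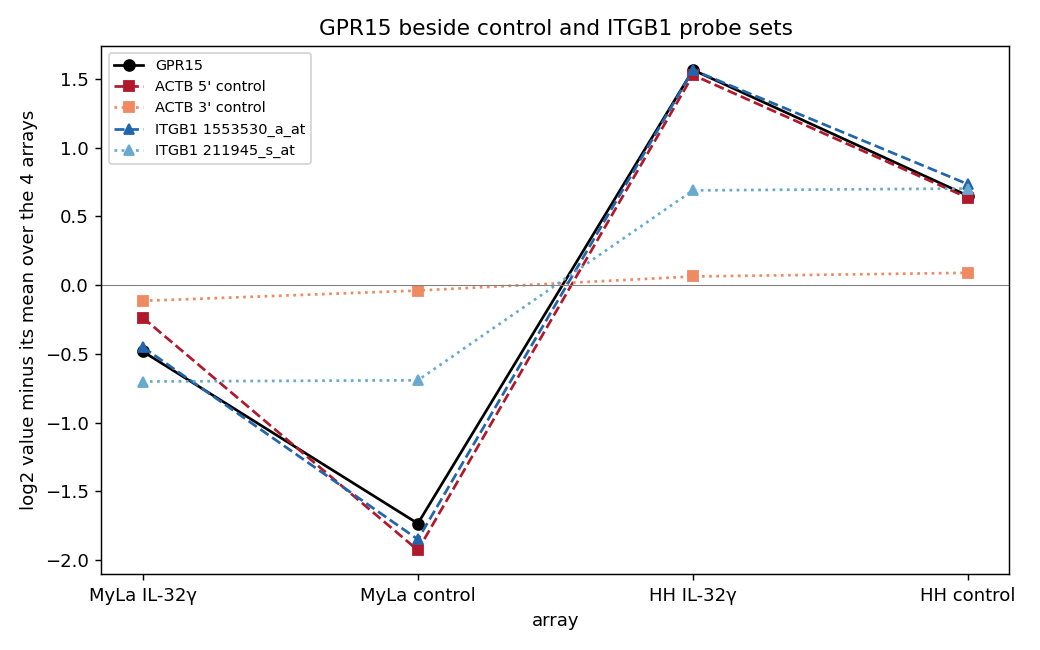
Log2 value minus its own mean over the 4 arrays, for GPR15, the 5' and 3' control probe sets of ACTB and a pair of ITGB1 probe sets; the lines join the values of 1 probe set as a guide. GPR15, the 5' ACTB probe set and 1553530_a_at trace nearly the same shape, while the 3' ACTB probe set lies between -0.11 and 0.09 of its mean and 211945_s_at differs between lines but not with IL-32γ.

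By the same measure the probe sets most like CCR10 were those of HMCES, a sensor of abasic DNA sites (0.03), the protease gene CTSB (0.03) and SEC61A1, a channel subunit of the endoplasmic reticulum (0.04). These distances depend on the floor, since both HH values of CCR10 were raised to 5. CCR10 spanned 1.10 after that step and 3.96 before it. HMCES was above the floor throughout, at 10.71 and 9.98 in MyLa with IL-32γ and control, and 9.55 and 9.58 in HH. Those most like 209201_x_at of CXCR4 belonged to KDM4D, GTPBP3 and CDC14A (0.05 to 0.06), and those most like 211919_s_at to ZMYM5, IFI16 and PPFIBP1 (0.04 to 0.06). The 2 CXCR4 probe sets thus shared none of their nearest 3.

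The second comparison sets MyLa against HH. The IL-32γ and control arrays of a line, n = 2, stand in for replicates, so that the spread within a line holds the IL-32γ response too. GPR15 was lower in MyLa, at 7.11 ± 0.89 against 9.32 ± 0.65 in HH (SD, n = 2 arrays each), a difference of -2.22 ± 0.58 (SE) that passed the test in limma (adjusted p = 0.044). CXCR4 was higher in MyLa in 209201_x_at, at 11.21 ± 0.28 against 10.13 ± 0.39, by 1.09 ± 0.27 (2.12-fold, adjusted p = 0.038). Calls needed an adjusted p under 0.05 and 2-fold. They thus took in 1 of 9 tested member probe sets higher in MyLa and 1 lower, against 18.2% and 16.8% of all 25306 probe sets. Neither call held when any 1 of the 4 arrays was left out: GPR15 then differed by -2.84 to -1.59 and 209201_x_at by 0.81 to 1.36, with adjusted p-values from 0.107 to 0.291.

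The other 2 CXCR4 probe sets were higher in MyLa by 0.77 ± 0.23 (211919_s_at, adjusted p = 0.063) and 0.17 ± 0.12 (217028_at, adjusted p = 0.297), neither past the threshold. On the control arrays alone, MyLa minus HH was 1.55, 1.05 and 0.24 for 209201_x_at, 211919_s_at and 217028_at, and on the IL-32γ arrays 0.62, 0.49 and 0.10. The line difference of every CXCR4 probe set was thus smaller between the IL-32γ arrays, a contrast that has no replicate.

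CCR10 was at least 1.65-fold higher in MyLa, with measured means of 5.72 ± 0.53 in MyLa and 2.15 ± 0.02 in HH (SD, n = 2 arrays each) and HH raised to the floor. It did not pass the test (adjusted p = 0.115). With a floor of 4 the difference was 1.72 (adjusted p = 0.017), so its call depends on the floor.

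The other members were lower in MyLa by less than 2-fold. The difference was -0.35 ± 0.12 for CCR7 (adjusted p = 0.075), -0.41 ± 0.12 for S1PR1 (0.053), -0.56 ± 0.13 for 209880_s_at of SELPLG (0.036) and -0.19 ± 0.10 for 209879_at (0.206). Only 209880_s_at of these had an adjusted p under 0.05, short of the 2-fold minimum. The 2 arrays of a line did not overlap those of the other in any of the 9 tested member probe sets, 5 lower and 4 higher in MyLa. Over all probe sets 40.6% were lower and 39.6% higher without overlap.

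**Figure D4:**
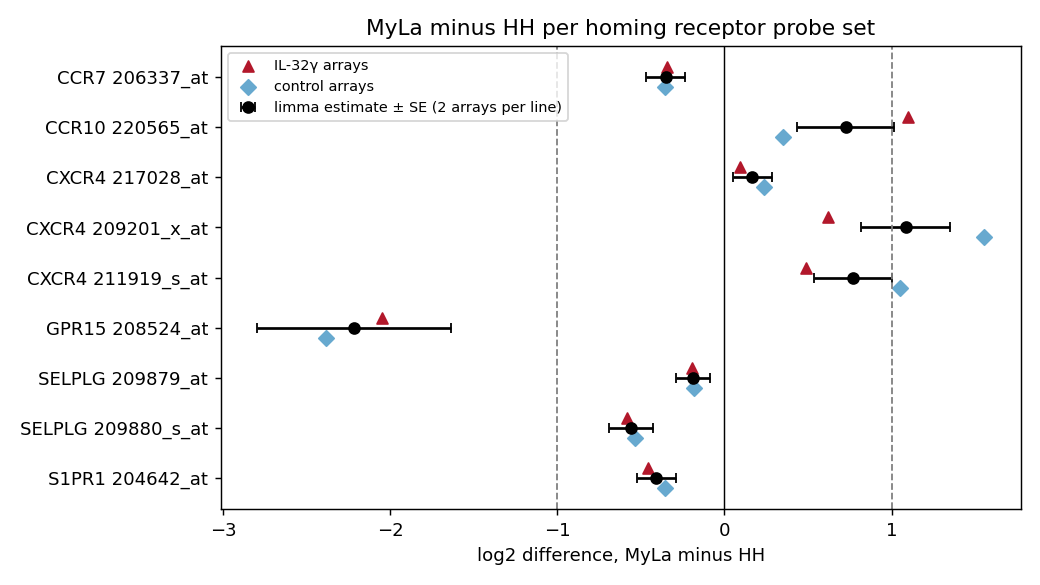
Log2 difference, MyLa minus HH, for the 9 tested member probe sets: black points and bars are the limma estimate and its SE from 2 arrays per line, triangles the IL-32γ arrays and diamonds the control arrays, with dashed lines at 2-fold. GPR15 lies at -2.22, left of all others, and 209201_x_at of CXCR4 at 1.09; values below 5 were raised to 5, which affects CCR10 in HH.

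Genes that act with the receptors were taken as 7 lists, each gene by its brightest probe set, judged by the mean of all 4 values. For these, 7.77% of all genes were higher and 7.65% lower by 1.5-fold or more with IL-32γ in MyLa, 1.14% and 4.46% in HH, and 18.6% and 16.6% were called higher and lower in MyLa than in HH. No list gene was called for IL-32γ across the lines.

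Several genes that modify selectin ligands such as PSGL-1 stood lower with IL-32γ, but the brightest ones differed by less than 1.5-fold. The list holds enzymes and helpers of selectin ligand glycans and the tyrosine sulfotransferases TPST1 and TPST2, which act on the protein and build no glycan. Whether each gene acts on PSGL-1 in these lines was not tested. Of 11 measured genes in MyLa, 6 were lower by 1.5-fold or more and 0 higher, with a median of -0.65 beside -0.07 over all genes. In HH 2 of 9 were lower and 0 higher, with a median of -0.30 beside -0.07. The brightest genes of the list differed little in MyLa: 0.08 for B4GALT1, 0.03 for FUT4 and -0.25 for C1GALT1C1. In HH these stood at 0.02, -0.06 and -0.02. The summed level (log2) of the list was 14.24 with IL-32γ and 14.30 without in MyLa, and 13.91 and 14.01 in HH. TPST1 differed most in MyLa, at 6.19 with IL-32γ and 7.25 without (-1.06), and without both sulfotransferases 5 of 9 were lower in MyLa and 2 of 8 in HH, with medians of -0.65 and -0.26. CHST2, a sulfotransferase of selectin ligands, was the 1 gene of these lists past 1.5-fold the same way in both lines, at 8.28 with IL-32γ and 8.94 without in MyLa, and 8.62 and 9.41 in HH (differences of -0.65 and -0.79, adjusted p = 0.483 across lines). C1GALT1, which starts the core glycan, differed by -0.81 in MyLa on its brightest probe set, but its other probe sets stood at -0.74 and 0.22. In HH the brightest differed by -0.30, which is the list's median there, and the others by 0.27 and 0.19. ST3GAL3, a sialyltransferase, differed by -0.69 in MyLa and -0.23 in HH, and its second probe set by -1.47 and -0.53. The branching enzyme GCNT1 differed by -0.88 in MyLa, with its other probe set at 0.13. SLC35C1, the Golgi GDP-fucose transporter, differed by -0.43 in MyLa and -0.53 in HH. Its other probe set, near the floor in MyLa and below it in HH, stood at 0.24 in MyLa. FUT7, the fucosyltransferase that completes the skin-homing epitope, was below 5 on every array, at 2.28, and was named here after its values were seen. FUT4, another fucosyltransferase of the list, read 10.75 with IL-32γ and 10.72 without in MyLa, and 11.27 and 11.33 in HH. On the same arrays SELPLG itself differed by at most 0.19 in either line.

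**Figure D5:**
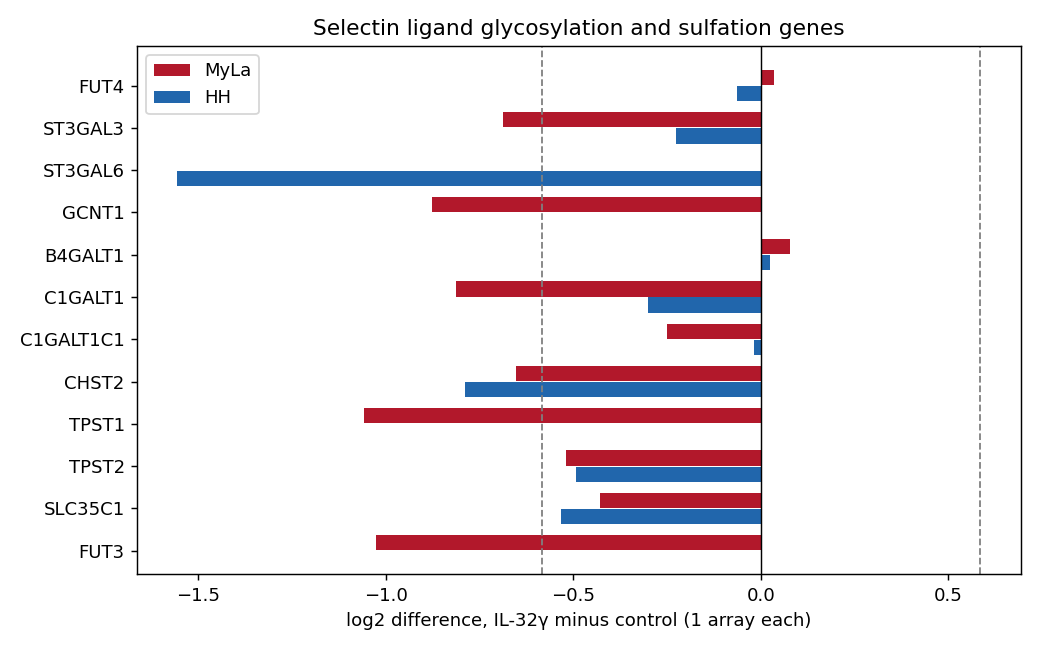
Log2 difference, IL-32γ minus control, for the 12 measured genes of selectin ligand glycosylation and sulfation in MyLa (red) and HH (blue), from 1 array each and by the brightest probe set; dashed lines mark 1.5-fold, and a gene with no bar in a line was below 5 there on both arrays. In MyLa 6 bars pass the left-hand line, in HH those of ST3GAL6 and CHST2.

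Between the lines, 3 of 12 tested genes of this list were called higher in MyLa and 2 lower; without both tyrosine sulfotransferases it was 2 of 10 higher and 2 lower. GCNT1 was at least 16.8-fold higher in MyLa, since HH was below the floor, and SLC35C1 was 5.71-fold higher (adjusted p = 0.0053), while C1GALT1 and ST3GAL3 were lower in MyLa, with log2 differences of -1.96 and -1.73 (adjusted p = 0.016 and 0.015).

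Ligands of the receptors differed between the lines, with 2 of 4 tested higher in MyLa and 2 lower. CXCL10 and CXCL11, ligands of CXCR3, were 5.29-fold (adjusted p = 6.2e-04 in limma) and at least 24.6-fold higher in MyLa. CXCL11 read 4.64 and 4.79 on the HH IL-32γ and control arrays, both raised to 5, so HH has no spread there. CCL28, a ligand of CCR10, and CCL22, a ligand of CCR4, were measured in HH alone, where they were at least 15.4-fold and 3.57-fold higher than in MyLa. GPR15LG, the ligand of GPR15, and CXCL12 read 2.13 on all arrays. With IL-32γ, 0 of 3 measured ligands passed 1.5-fold in MyLa and 2 of 3 did in HH: CCL22 at 7.14 against 6.54, and CCL28 at 9.26 against 8.63. That CCL28 probe set ranked first by its mean of all 4 values through those below the floor in MyLa, and was on average the dimmest of 3 in HH, where the brighter pair differed by 0.18 and -0.19; by the probe set brightest in HH, CCL28 did not pass 1.5-fold.

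Of 17 other chemoattractant receptors with a probe set, 14 were below 5 on every array, among them CCR9, which like GPR15 directs cells to the gut. GPR183, a receptor for oxysterols, was at least 209-fold higher in MyLa than in HH, and CCR6 at least 3.15-fold. Both genes were below the floor in HH. CCR6 was the 1 of 3 measured in MyLa that passed 1.5-fold with IL-32γ, at 6.24 against 7.08 in control. In the sphingosine 1-phosphate list S1PR2 was lower in MyLa than in HH, with a log2 difference of -1.10, while SGPP1 and SGPL1, enzymes that break down the ligand, were 5.89-fold and 3.47-fold higher. With IL-32γ 1 of 4 was higher in MyLa, S1PR4 at 6.95 against 5.96 in control, and 0 of 5 in HH.

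Among homing integrins ITGB7, the beta chain of the gut-homing integrin, read 4.91 and 5.18 in MyLa with IL-32γ and control, and 10.57 and 11.10 in HH. ITGB1 was also lower in MyLa, with a log2 difference of -1.39 (adjusted p = 0.0022), and ITGB2 was at least 2.07-fold higher in MyLa. ITGAE was higher in MyLa too, by 1.79-fold, at 12.42 and 12.77 with IL-32γ and control against 11.65 and 11.85 in HH. With IL-32γ 1 of 7 integrin list genes was lower in MyLa, ITGA4 (-0.74), whose other probe set, slightly brighter in MyLa, stood at -0.27, and 0 of 6 passed in HH. The list of receptor signalling and desensitisation had 4 of 24 higher and 1 lower in MyLa, and 1 of 22 higher and 3 lower in HH. The 1 gene higher in HH was GNAQ, a G protein alpha subunit, at 0.59, and its probe set that was the brightest in HH stood at 0.09. Between the lines 6 of its 25 were higher in MyLa and 9 lower. RHOH, a regulator of T cell receptor signalling and migration, was at least 145-fold higher in MyLa. RGS16 and RGS18, which shorten G protein signals, were 65.1-fold and at least 28.1-fold higher in MyLa, and ARRB1, an arrestin that desensitises receptors, at least 11.2-fold.

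Of transcription factors known for control of these receptors, 2 of 8 measured genes were higher with IL-32γ in MyLa, RARA and BATF, and 0 of 8 in HH. RARA, the retinoic acid receptor that drives gut homing, had 9.13 against 5.95 in MyLa on its brightest probe set and differences of 0.19 and 0.18 on the others. AHR, which promotes GPR15 expression in T cells, read 10.51 with IL-32γ and 10.53 without in MyLa, and 10.33 and 10.26 in HH. FOXP3, also linked to GPR15, was below 5 on every array. GATA3, the Th2 factor, differed by -0.22 and -0.24 and was 3.09-fold higher in MyLa, where GPR15 was lower. SATB1 and FOXO1 were higher in MyLa too, at least 30.1-fold and by 2.05-fold, and NR3C1, the glucocorticoid receptor, was lower, with a log2 difference of -2.95. KLF2, which activates S1PR1, read 2.16 on both MyLa arrays and 3.96 and 5.01 in HH, while S1PR1 was above 11 on all arrays; it was named here after its values were seen.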

How the data were processed

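Biotin-labelled material prepared from total RNA was hybridised to 1 array per line and condition. The deposited values are log2 expression per probe set made with GCRMA, per the submitters' processing notes. GCRMA estimates background from probe base composition, so many dim probe sets share a low value of 2.13. Its version is not given in the sources used here, nor is whether all arrays were normalised jointly, and the log2 scale was read from the values. Scanner files were not used here.

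Symbols came from the array's annotation, updated through Entrez identifiers (41043 of 41097 probe sets with 1 symbol matched). Within a line, values below 5 were raised to 5, and probe sets at 5 or more on at least 1 of its 2 arrays were compared. limma (3.58.1, under R 4.3.3) was run on all 25306 probe sets at 5 or more on at least 2 arrays, two-sided, with Benjamini-Hochberg adjustment, for IL-32γ with the line as a block and for MyLa against HH without one. The fits were also run on simulated data, with independent noise around a single mean per probe set and no floor. Those settings differ from these arrays, and no result here rests on that run. The number of arrays limits precision. Where a line lay below 5 on both arrays, its raised values have no spread, so a call there rests on the spread of the other line.

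Members, gene lists and tests were chosen with earlier results of these data known. Genes beyond the members were named where both lines passed 1.5-fold in 1 direction, for the 4 largest called line differences of a list, as ligand or regulator of GPR15, or by the 3 smallest distances. Further probe sets, list genes with a 1.5-fold difference in 1 line and the ACTB and GAPDH control probe sets were added after their values were seen. So were B4GALT1, FUT4, C1GALT1C1 and ITGAE.

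The settings varied were the floor (4, 6 or absent), the scaling (quantile, median), the fold threshold, a trend of variance with intensity, the block, the probe sets taken (without those of several possible transcripts, or 1 per gene) and the arrays, each left out in turn. Python 3.11.15 with pandas 2.3.3 and numpy 2.4.6 made the tables.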

Additional observations from a re-analysis of the deposited data

How the results depend on the processing

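GPR15 with IL-32γ differed by 1.24 to 1.29 in MyLa and by 0.92 to 0.94 in HH over the settings that changed the values. The count of members past 1.5-fold in MyLa, 2, became 1 with a floor of 6, where CCR10 stood at 0.10, and 1 at a 2-fold threshold. In HH the count of 1 became 2 with quantile normalised or with median centred values and 0 at a 2-fold threshold. No member was called for IL-32γ across lines in any setting run, also with no replicate block by line. Between the lines, 2 probe sets were called with the culture condition as replicate block, 1 without probe sets that can match several transcripts and 1 with the brightest probe set per gene, an alternative added after seeing the data. Leaving out 1 array, which leaves a line with a lone array assumed to vary like the others, gave 0 to 1 calls: 0 without the MyLa IL-32γ or the HH control array, 1 (CCR10) without the MyLa control array and 1 (211919_s_at) without the HH IL-32γ array. With no floor and no filter CCR10 was called higher in MyLa (3.58, adjusted p = 0.044) and CCR4, below the floor on every array, lower (-2.35, adjusted p = 0.044), while 209201_x_at and GPR15 were not (adjusted p = 0.204 and 0.244); all 54675 probe sets are tested there. Lines and arrays were too few for a test of the IL-32γ response within a line. Other alternatives kept each count within 1.5 times.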
